A study of Mus musculus with 9 samples.

Results

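SF3A and SF3B are the protein complexes that, as parts of the U2 small nuclear ribonucleoprotein, hold the U2 RNA on the branch site of an intron, and 9 of their subunits were followed here by gene symbol: Sf3b1, Sf3b2, Sf3b3, Sf3b4, Sf3b5 and Phf5a of SF3B, and Sf3a1, Sf3a2 and Sf3a3 of SF3A. All 9 symbols were found once among the 38215 genes of the count table, and all 9 were among the 14944 genes that passed the filter on low counts. The libraries came from bone marrow of 9 C57BL/6J mice that carried Jak2V617F, an activating mutation of the kinase Jak2, and all of them had been given tamoxifen. Titles number them as mice. In 5 the title holds EV, an abbreviation left unexplained in the labels, and the genotype is Jak2V617F alone. The other 4 have the genotype Jak2V617F-sgZrsr2, which the design text describes as Zrsr2 loss. The sorted cells were Lineage- Sca1+ Kit+ (LSK), the fraction with the haematopoietic stem cells and multipotent progenitors, positive for GFP and mCherry at the terminal time point. The labels give neither the age of the mice, nor which transgene tamoxifen acts on and what promoter drives it, nor what each fluorescent protein marks.

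In the major spliceosome, SF3A and SF3B join the U2 particle together, and SF3B1 closes around the helix formed by U2 RNA and the branch site so that the branch-point adenosine bulges out. SF3B, unlike SF3A, is also built into the U11/U12 particle, with which the minor spliceosome recognises U12-type introns. Zrsr2 recognises the 3' splice site of U12-type introns, so the mice with sgZrsr2 address whether loss of a minor spliceosome factor goes with other levels of the machinery that both spliceosomes share. SF3B1 and ZRSR2 are both genes that are recurrently mutated in human myeloid neoplasms.

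The sequence before the transcription start is shown for Sf3b1, which followed a pattern of its own across the libraries, and for Sf3b2 and Sf3a1, as 1 subunit of each complex whose levels moved with those of the others. RefSeq (build GRCm38.p6) gave a window for 6 of the 9 genes, namely Sf3b1, Sf3b2, Sf3b3, Sf3a1, Sf3a2 and Sf3a3. Each sequence below is the 250 bases before the start, 5′ to 3′ on the strand of the gene. Capitals mark the letters CCGGAAG, 1 form of the site that ETS-family transcription factors are known to bind, or their reverse complement. The windows are chr1:55027479-55027728 on the minus strand for Sf3b1, chr19:5295458-5295707 on the minus strand for Sf3b2 and chr11:4160104-4160353 on the plus strand for Sf3a1.
Sf3b1: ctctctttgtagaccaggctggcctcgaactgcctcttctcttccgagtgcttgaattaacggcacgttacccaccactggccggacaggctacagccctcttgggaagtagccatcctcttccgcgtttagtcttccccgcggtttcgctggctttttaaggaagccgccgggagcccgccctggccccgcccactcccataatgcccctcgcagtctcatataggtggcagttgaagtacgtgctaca
Sf3b2: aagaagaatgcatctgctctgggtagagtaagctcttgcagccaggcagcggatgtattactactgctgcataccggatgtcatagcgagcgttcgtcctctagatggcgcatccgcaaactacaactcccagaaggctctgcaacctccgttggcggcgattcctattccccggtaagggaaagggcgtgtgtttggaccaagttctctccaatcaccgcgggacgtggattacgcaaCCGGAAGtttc
Sf3a1: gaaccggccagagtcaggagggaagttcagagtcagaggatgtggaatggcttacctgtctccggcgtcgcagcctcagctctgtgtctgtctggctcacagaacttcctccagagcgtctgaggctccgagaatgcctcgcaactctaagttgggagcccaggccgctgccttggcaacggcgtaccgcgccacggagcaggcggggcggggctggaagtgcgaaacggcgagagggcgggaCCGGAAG
The letters CCGGAAG, searched on both strands, were found in 5 of the 6 windows, and they were found in 6.91% of the 32851 windows of the same length in the RefSeq table. They were chosen after the sequences had been seen, so the share among the 6 windows was partly set by that choice. Whether the letters bear on the levels of the subunits was not tested. The match began 11 bases before the RefSeq start in Sf3b2, 7 in Sf3a1, 76 in Sf3a2, 90 in Sf3a3 and 229 in Sf3b3. In Sf3b3 and Sf3a3 it was on the opposite strand. In the authors' gene coordinates Sf3a2 begins at 80798198, upstream of its whole window (80798485 to 80798734). Sf3a3 begins there at 124714776, inside its window (124714611 to 124714860). The window of Sf3b1 did not hold these letters, though it held CTTCCG, the reverse complement CTTCCGG without its last letter. Other forms of the site were not searched. The GC content of the 6 windows ran from 45.6% in Sf3b3 to 65.2% in Sf3a2, and was 58.4% in Sf3b1. Its mean over the 32851 windows was 53.2%.

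The libraries held 23238264 to 45585531 expected counts, and the 9 subunits together took 0.182% to 0.210% of them. Each subunit rested on 1498 to 22242 counts per library, so counting error was small beside the spread between mice. Of 6 LSK markers all 6 were present, with summed levels of 1237 to 1665 CPM (counts scaled to library size with TMM factors) in EV and 1365 to 1619 CPM with sgZrsr2. The 7 lineage markers summed to 21.0 to 51.1 and 22.8 to 61.0 CPM, mostly Itgam, and Cd3e and Ly6g stayed at or below 0.0871 CPM. In EV mice 1 to 5 the targeted gene Zrsr2 stood at 50.6, 51.9, 62.2, 51.7 and 50.7 CPM, and in sgZrsr2 mice 1, 2, 3 and 5 at 39.4, 44.4, 40.04 and 31.7 CPM. All 4 sgZrsr2 libraries lay below the EV libraries, with a log2 fold change of -0.46 (SE 0.12), an edgeR adjusted p of 0.714 and a two-sided exact permutation p of 0.0159, the smallest that 5 against 4 samples can give.

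No subunit passed a test of the difference between the groups. The mean levels with sgZrsr2 were 84.5% (Sf3b5) to 102% (Sf3b1) of those with EV, and the groups overlapped for 9 of 9 subunits. In edgeR's quasi-likelihood test 0 of 9 passed a Benjamini-Hochberg adjusted p of 0.05 (adjusted p 0.734 to 0.960), where 0% of all genes tested did, and 0 of 9 had an unadjusted p under 0.05, where 6.85% of all genes did (2.98% lower and 3.87% higher with sgZrsr2). The DESeq2 Wald test and limma-voom with sample quality weights also gave 0 of 9 at an unadjusted p under 0.05, beside 8.54% and 17.1% of all genes. Groups that did not overlap were found in 3.06% of all genes (1.32% lower and 1.75% higher). The log2 fold change was below 0 for 8 of the 9 subunits, beside 51.5% of all genes tested, and its median was -0.16 over the 9 subunits and -0.01 over all genes. This direction turned with quality weights, where 2 of 9 were below 0 and the median was 0.023. Its size was not stable: without sgZrsr2 mouse 3 the median was -0.063, with 8 of 9 below 0. Fewer cells of a type and less RNA per cell cannot be told apart in such bulk libraries. The plot of levels by library shows how far the groups overlapped.

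**Figure D1:**
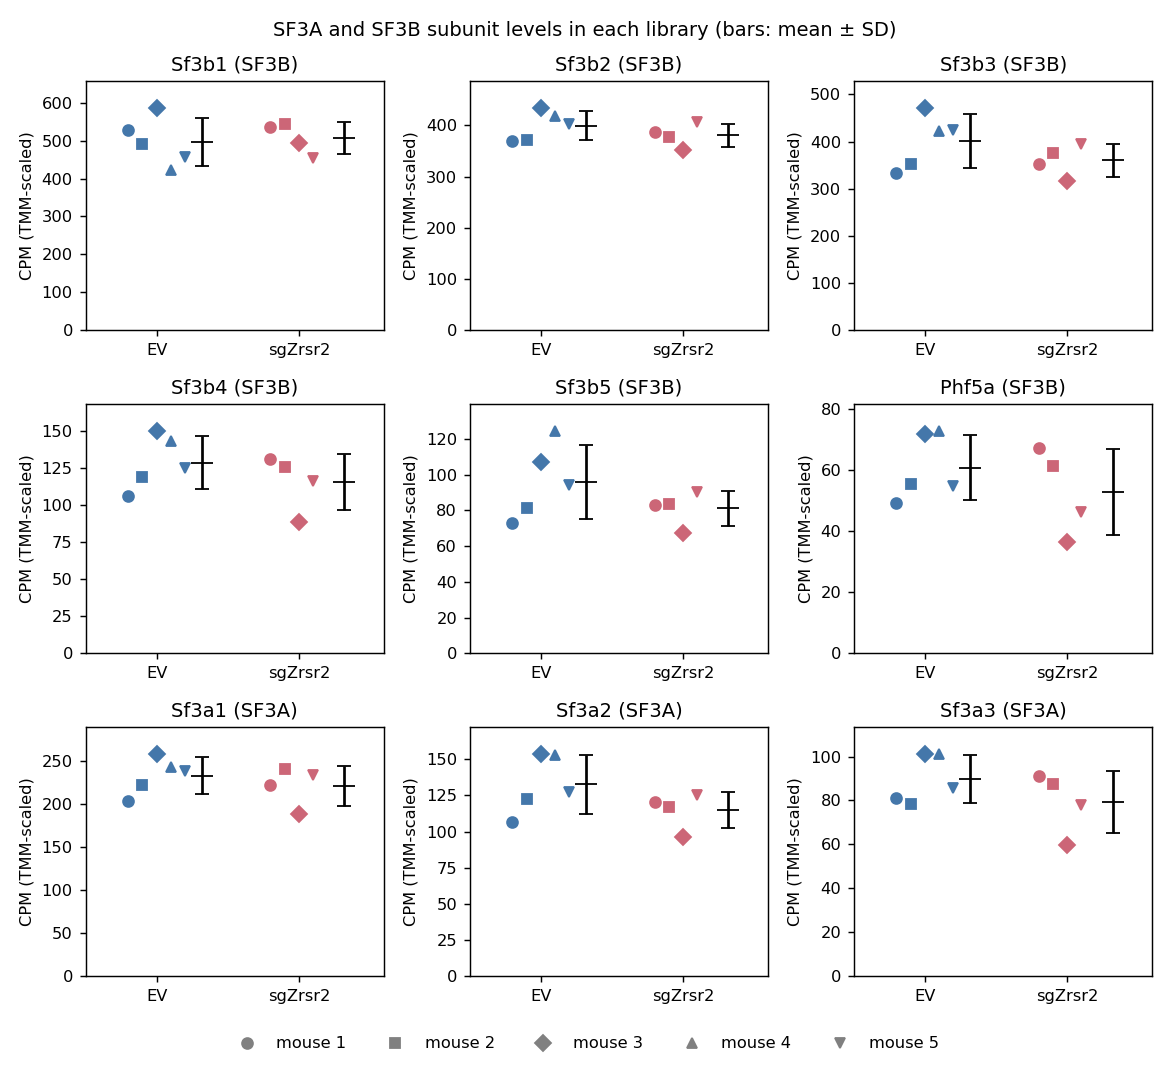
Levels of the 9 subunits in CPM (vertical axes, from 0) in the 5 EV and 4 sgZrsr2 libraries; the marker shape gives the mouse number and the bars the mean ± SD. The groups overlap in every panel, and sgZrsr2 mouse 3 (red diamond) is the lowest library in 8 of the 9.

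Sf3b1 (ENSMUSG00000025982; GRCm38, chromosome 1, 54985169 to 55027478, minus strand) encodes the largest SF3B subunit, the clamp around the branch-site helix. In EV mice 1 to 5 Sf3b1 stood at 528, 492, 586, 423 and 456 CPM, and in sgZrsr2 mice 1, 2, 3 and 5 at 536, 543, 495 and 453 CPM. EV mice 3 and 4 were the highest and the lowest of all libraries, so that all 4 sgZrsr2 values fell inside the EV range. The means were 496.9 ± 63.4 CPM (SD, n = 5) and 506.7 ± 41.6 CPM (SD, n = 4). For Sf3b1 the log2 fold change, sgZrsr2 against EV, was 0.03 (SE 0.12; 95% interval -0.23 to 0.29, the upper bound being 22.3% higher). This was the subunit nearest to no difference, and its sign was not stable, being below 0 in 4 of the 9 fits with a library left out.

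Phf5a (ENSMUSG00000061360; chromosome 15, 81865319 to 81871911, minus strand) encodes the small zinc-binding protein that sits against SF3B1 and forms with it the pocket for splicing inhibitors such as pladienolide. Phf5a stood, in EV mice 1 to 5, at 49.2, 55.3, 71.6, 72.9 and 54.9 CPM, and in sgZrsr2 mice 1, 2, 3 and 5 at 67.2, 61.3, 36.4 and 46.2 CPM. Mice 1 and 2 of the sgZrsr2 group lay in the upper part of the EV range and mice 3 and 5 below it. Relative to its level, Phf5a had the widest range of the 9 subunits, 36.4 to 72.9 CPM over all libraries. For Phf5a the log2 fold change was -0.21 (SE 0.19), and its 95% interval, the widest of the 9, ran from -0.63 to 0.22, that is -35.3% to 16.3%.

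Sf3b2 (ENSMUSG00000024853; chromosome 19, 5273923 to 5295455, minus strand), whose protein contacts the pre-mRNA near the branch site and binds Sf3b4, was the steadiest subunit. In EV mice 1 to 5 Sf3b2 stood at 370, 372, 435, 418 and 403 CPM, and in sgZrsr2 mice 1, 2, 3 and 5 at 387, 378, 353 and 407 CPM, a 1.23-fold range over the 9 libraries. For Sf3b2 the log2 fold change was -0.07 (SE 0.10; interval -0.28 to 0.14, that is -17.7% to 10.4%). The groups overlapped along most of their range.

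Sf3b3 (ENSMUSG00000033732; chromosome 8, 110810492 to 110846803, minus strand) encodes the scaffold of beta-propellers on which SF3B is built. In EV mice 1 to 5 Sf3b3 stood at 334, 352, 472, 422 and 425 CPM, and in sgZrsr2 mice 1, 2, 3 and 5 at 353, 376, 316 and 396 CPM (log2 fold change -0.15, SE 0.13). EV mice 3, 4 and 5 were above all sgZrsr2 libraries, and EV mouse 1 was below 3 of the 4. Sf3b5 (ENSMUSG00000078348; chromosome 10, 13008450 to 13009182, plus strand), a small subunit held by that scaffold, was at 72.9, 81.3, 107, 125 and 94.0 CPM and at 83.3, 83.5, 67.3 and 90.4 CPM in the same order. It had the largest difference of the 9 (log2 fold change -0.24, SE 0.16, interval -0.60 to 0.11), which came with the widest spread within EV, a coefficient of variation of 21.4%. As for Sf3b3, EV mice 3, 4 and 5 lay above all sgZrsr2 libraries and EV mouse 1 below 3 of the 4.

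Sf3b4 (ENSMUSG00000068856; chromosome 3, 96172332 to 96177564, plus strand) encodes the SF3B subunit with RNA recognition motifs that contacts the intron upstream of the branch site. Sf3b4 stood, in EV mice 1 to 5, at 106, 119, 150.5, 144 and 125 CPM, and in sgZrsr2 mice 1, 2, 3 and 5 at 131, 125.8, 89.0 and 117 CPM (log2 fold change -0.16, SE 0.14). Apart from mouse 3, the sgZrsr2 libraries lay inside the EV range. The expected count of Sf3b4 was a whole number in 0 of 9 libraries, which means that RSEM divided some of its reads with other genes, and its level is uncertain to that extent.

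Among the SF3A subunits, which the minor spliceosome does not take up, Sf3a1 (ENSMUSG00000002129; chromosome 11, 4160350 to 4182541, plus strand), the subunit with the SURP domains that hold the complex together, stood at 203, 222, 258, 242 and 238 CPM in EV mice 1 to 5. In sgZrsr2 mice 1, 2, 3 and 5 Sf3a1 stood at 222, 240, 188 and 233 CPM (log2 fold change -0.08, SE 0.11, interval -0.32 to 0.17). Only sgZrsr2 mouse 3 lay outside the EV range.

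Sf3a2 (ENSMUSG00000020211; chromosome 10, 80798198 to 80804924, plus strand) and Sf3a3 (ENSMUSG00000028902; chromosome 4, 124714776 to 124732460, plus strand) encode zinc finger proteins that tie SF3A to the U2 particle. Sf3a2 stood, in EV mice 1 to 5, at 107, 123, 154, 153 and 128 CPM, and in sgZrsr2 mice 1, 2, 3 and 5 at 120, 117, 96.5 and 125 CPM. Its log2 fold change of -0.21 (SE 0.13, interval -0.51 to 0.09) had the smallest p of the 9, 0.147 unadjusted and 0.734 adjusted in edgeR, with an exact permutation p of 0.190. Sf3a3 was at 81.2, 78.4, 101, 101 and 85.9 CPM and at 91.4, 87.4, 59.9 and 78.0 CPM in the same order (log2 fold change -0.18, SE 0.14). In both genes EV mice 3 and 4 were the highest and sgZrsr2 mouse 3 the lowest library. The expected counts of Sf3a2 were whole in 0 of 9 libraries. Sf3a2 overlaps Plekhj1, on the opposite strand, by 429 bases, and Sf3b3 overlaps Cog4, on the opposite strand, by 204 bases. Whether the counting used strand is not given in the sources used here.

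**Figure D2:**
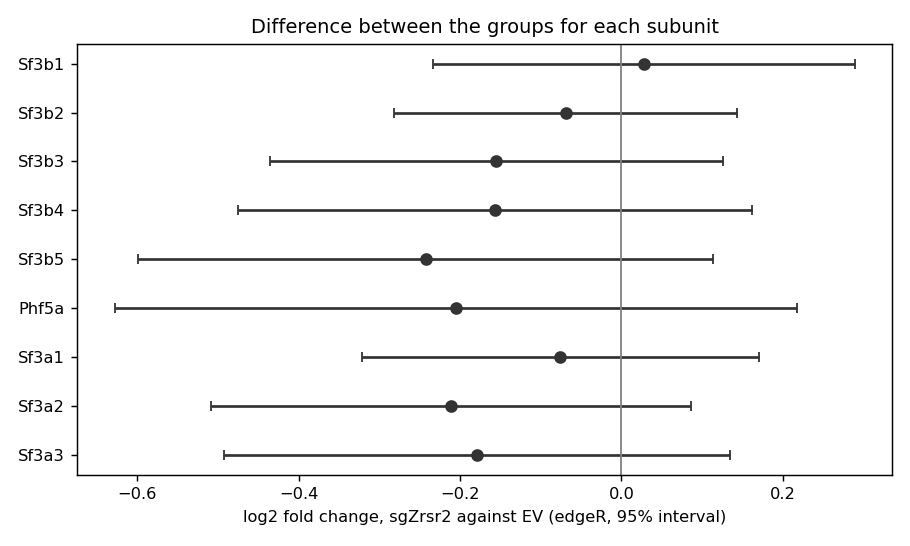
Log2 fold change of each subunit, sgZrsr2 against EV (horizontal axis), from edgeR on 9 libraries; points are estimates and lines 95% intervals. Every interval crosses 0, the narrowest being that of Sf3b2 and the widest that of Phf5a.

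SF3B and SF3A subunits had similar medians. Of the 6 SF3B subunits 5 had a log2 fold change below 0 (median -0.16) and of the 3 SF3A subunits all 3 did (median -0.18). The summed level of the SF3B subunits was 3.74, 3.48, 3.55, 3.23 and 3.45 times that of the SF3A subunits in EV mice 1 to 5 and 3.59, 3.52, 3.94 and 3.46 times in sgZrsr2 mice 1, 2, 3 and 5. The groups overlapped, and sgZrsr2 mouse 3 alone lay above the EV range. These ratios were not tested, since the genes were chosen by name with earlier results of these data known.

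The highest and the lowest levels of most subunits fell on the same libraries. EV mouse 3 was the highest library for 7 of the 9 subunits and EV mouse 4 for the other 2, whereas sgZrsr2 mouse 3 was the lowest for 8 of the 9. In sgZrsr2 mouse 3 the log2 level stood below the EV mean by 0.72 for Phf5a, 0.57 for Sf3a3, 0.52 for Sf3b4, 0.48 for Sf3b5 and 0.45 for Sf3a2. It stood at 0.00 for Sf3b1. In that library there were thus 13.6 counts of Sf3b1 for each of Phf5a, beside 5.80 to 10.7 in EV and 7.98 to 9.81 in the other sgZrsr2 libraries. Without sgZrsr2 mouse 3 the median log2 fold change of the 9 subunits was -0.06, and without EV mouse 3 it was -0.10. No library met Dixon's criterion for an outlier in any of the 9 subunits in either group. With 4 values that criterion is hard to meet, since the gap to the next value must exceed 0.829 of the range. For the mean log2 deviation of the 9 subunits the gap of sgZrsr2 mouse 3 was 0.789 of the range.

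**Figure D3:**
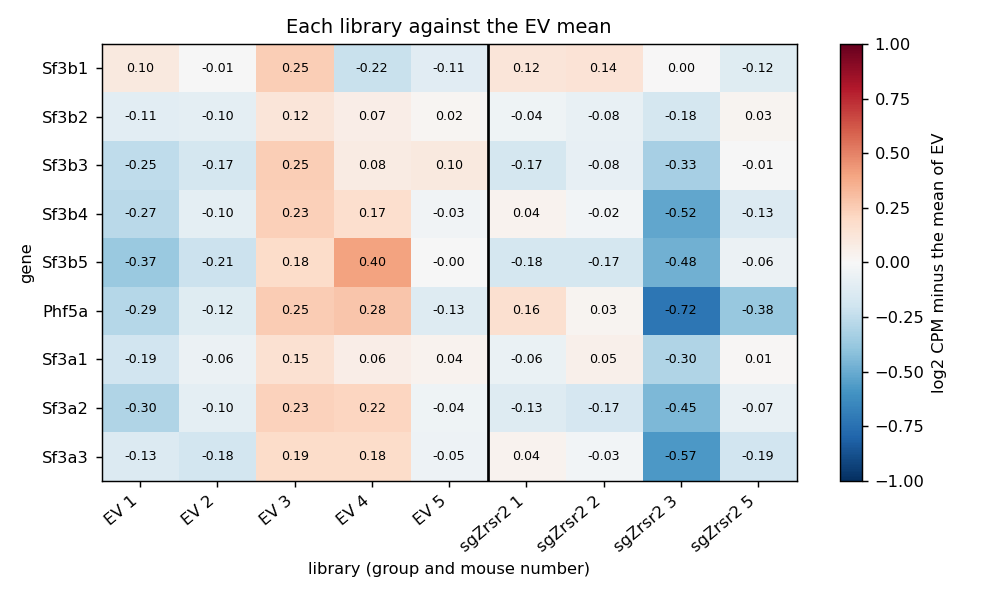
Log2 CPM of each subunit (rows) in each library (columns) minus its mean in EV; red is higher and blue lower, and the black line divides EV from sgZrsr2. The row of Sf3b1 differs from the 8 others, which are high in EV mice 3 and 4 and lowest in sgZrsr2 mouse 3.

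The libraries at both ends also stood at the ends of the scaling factors, and sgZrsr2 mouse 3 was high in markers of other cell types. The 7 lineage markers summed to 61.0 CPM in sgZrsr2 mouse 3 and 51.1 CPM in EV mouse 1. Their sum was lowest in EV mouse 4, at 21.0 CPM, and EV mouse 3 lay between, at 34.4 CPM. Whether markers followed the order of the libraries in the subunits was not tested. EV mouse 3 had the lowest TMM scaling factor of all libraries, 0.894, and sgZrsr2 mouse 3 the highest, 1.07. With CPM from library totals alone, EV mouse 3 was the highest library for 0 of the 9 subunits in place of 7, EV mouse 4 for 5 and EV mouse 5 for 2, so the top place of EV mouse 3 depended on the scaling. sgZrsr2 mouse 3 was then the lowest for 7 of the 9 in place of 8. In sgZrsr2 mouse 3 the 7 erythroid markers summed to 124 CPM and the 6 mature neutrophil markers to 191 CPM, the highest of all libraries, beside medians of 19.7 and 26.7 CPM in EV. The 7 megakaryocyte markers summed to 377 CPM there, within a range of 125 to 496 CPM over all libraries. All 7 erythroid, 7 megakaryocyte and 6 neutrophil markers were detected. EV mouse 5 also had high neutrophil markers, at 163 CPM, and there the log2 levels of the 9 subunits lay on average 0.04 above their means over the 9 libraries. With EV mouse 5 and sgZrsr2 mice 3 and 5 left out, the median of the 9 subunits was -0.01 and 6 of 9 were below 0. Car1 was raised in these libraries, at 25.4, 39.3 and 35.5 CPM, beside at most 0.422 CPM in the others. Of the erythroid markers Hbb-bt went the other way, at 8.05 CPM in EV mouse 5 and 5.59 CPM in sgZrsr2 mouse 5, beside 46.2 CPM in sgZrsr2 mouse 1. The sums set EV mouse 5 apart less. Its erythroid markers summed to 58.3 CPM, beside 48.9 CPM in sgZrsr2 mouse 1, and its megakaryocyte markers to 303 CPM, beside 280 CPM in EV mouse 4. The part of these cell types in the result was not tested.

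**Figure D4:**
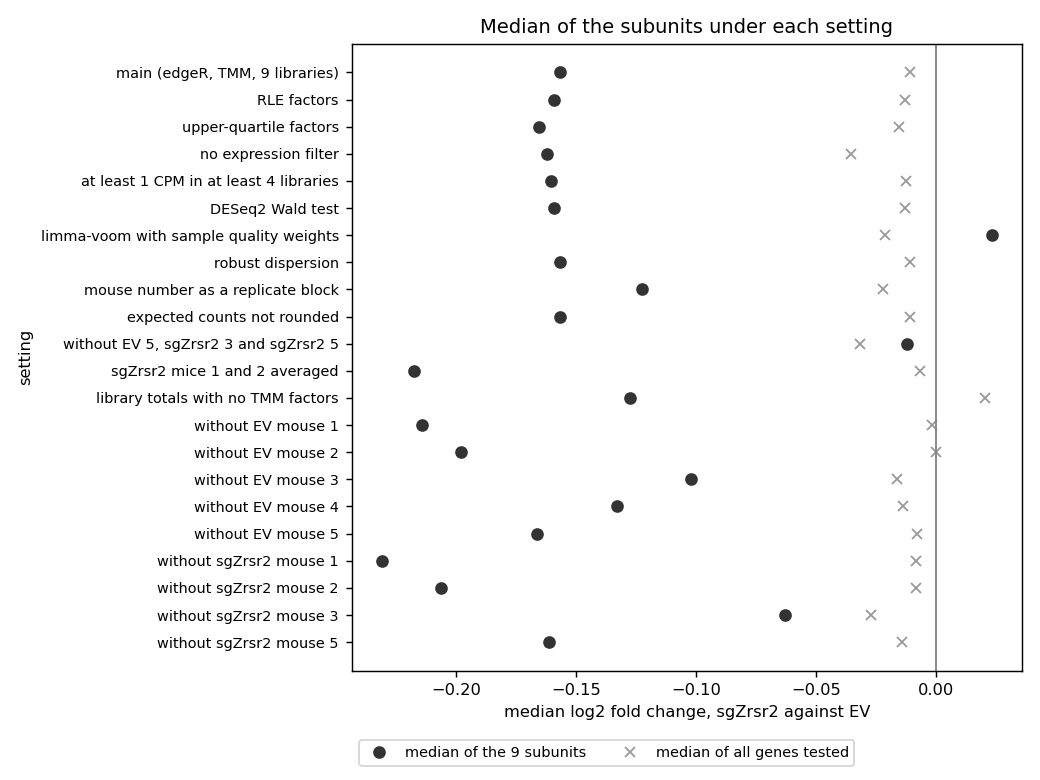
Median log2 fold change, sgZrsr2 against EV (horizontal axis), of the 9 subunits (points) and of all genes tested (crosses) under each setting (rows). The points run from -0.23, without sgZrsr2 mouse 1, to 0.02, with limma-voom and sample quality weights, and lie nearest to the crosses without sgZrsr2 mouse 3, without the 3 libraries or with quality weights.

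Across the 9 libraries 8 of the subunits varied together and Sf3b1 did not. The Pearson correlation of log2 CPM with the mean of the other subunits (Sf3b1 left out of that mean) was 0.86 for Phf5a, 0.86 for Sf3b3, 0.90 for Sf3b2, 0.90 for Sf3b5, 0.92 for Sf3a1, 0.93 for Sf3a3, 0.96 for Sf3a2 and 0.98 for Sf3b4. Among 9621 genes outside the complex (mean 10 CPM or more), 0.353% correlated as strongly as Sf3b4 with the subunits Sf3b4 was set against, and 8.86% as strongly as Sf3b3 with those Sf3b3 was set against. For Sf3b1 the correlation was -0.02 (Spearman's rho 0.07), beside a median of 0.07 over the other genes. Sf3b1 was set apart by its pattern in these same libraries, so the values of the 8 rest partly on leaving it out. In pairs, with no such mean, the median correlation was 0.87 among the 8 and -0.02 between Sf3b1 and the others. These correlations are descriptions over 9 libraries that share their scaling factors, and they carry no test. In the 5 EV libraries alone the correlations with the mean were 0.91 to 0.99 for the 8 subunits and 0.01 for Sf3b1. With library totals in place of TMM factors they were 0.59 to 0.95 for the 8 and -0.76 for Sf3b1, so the separation of Sf3b1 held under both scalings but its size did not. Without the libraries of EV mouse 3 and sgZrsr2 mouse 3 the values were 0.66 to 0.94 and -0.63.

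The 3 genes whose pattern over the 9 libraries was nearest to that of Sf3b1, among 9629 candidates at a mean of 10 CPM or more, were Sh3glb1 (r = 0.97), Tor1aip1 (r = 0.95) and Wdr26 (r = 0.95). Sh3glb1 encodes an endophilin of mitochondria and autophagosomes, Tor1aip1 a protein of the inner nuclear membrane and Wdr26 a subunit of a ubiquitin ligase. Sh3glb1 ran from 64.2 to 99.8 CPM, Tor1aip1 from 85.3 to 123 CPM and Wdr26 from 185 to 309 CPM over the libraries. None of the 3 passed in edgeR (adjusted p 0.815 to 0.990).

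Levels of different subunits can be compared only per transcript length. With the longest coding transcript in GENCODE M21, which is not known to be the annotation of the counts, Sf3b2 was highest in EV at 124.1 ± 8.75 CPM per kb (SD, n = 5), above Sf3b3 at 88.6 ± 12.6, Sf3b1 at 80.2 ± 10.2, Sf3b4 at 67.3 ± 9.45 and Sf3a2 at 60.0 ± 9.22 CPM per kb. Sf3a3 followed at 49.2 ± 6.02, Sf3a1 at 47.3 ± 4.27 and Phf5a at 36.6 ± 6.47 CPM per kb. Only Sf3b2 was separated from its neighbour, Sf3b3, by more than the spread of the EV libraries, and the ranges of all other neighbours in this order overlapped. Sf3b5 could not be placed: the table gives it a length of 733 bases and GENCODE M21 one of 3841 bases, and its level in EV was 130.9 ± 28.1 CPM per kb with the first and 24.98 ± 5.35 CPM per kb with the second. With the union of all exons as the length, Sf3b4 (59.6 ± 8.37 CPM per kb) and Sf3b2 (58.6 ± 4.13 CPM per kb) stood highest, so the top place of Sf3b2 depended on the length used. GENCODE M21 lists transcripts with a retained intron for 6 of the 9 genes, up to 6 for Sf3b2, and the gene sums do not tell them from spliced transcripts.

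**Figure D5:**
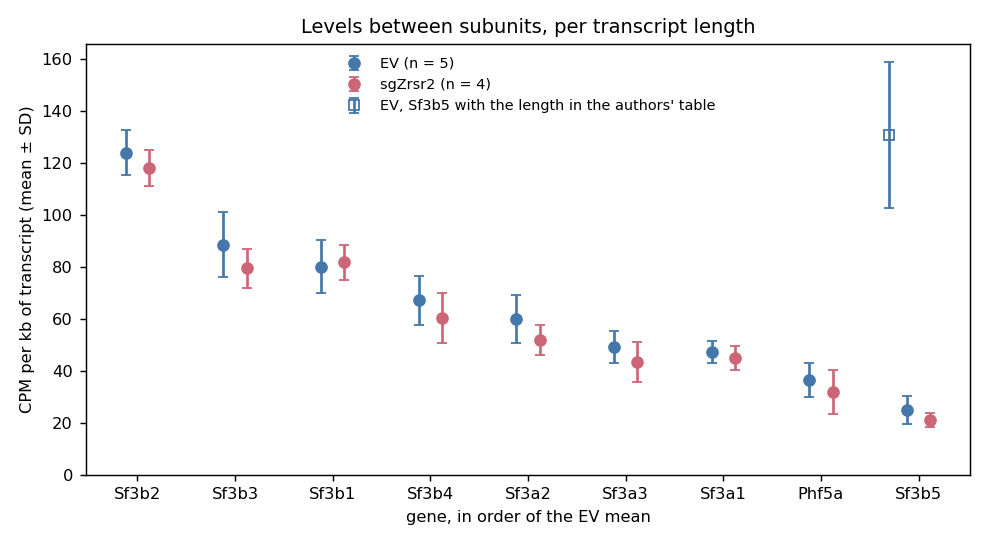
Level of each subunit per kb of its longest coding transcript in GENCODE M21 (vertical axis, mean ± SD) in EV and sgZrsr2; the open square is Sf3b5 with the length in the authors' table. Sf3b2 stands above its neighbours, the groups overlap for each gene, and the place of Sf3b5 depends on its length.

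The other proteins of the U2 particle, on 10 genes with the shared Sm ring proteins, Snrpa1, Snrpb2 and the remaining SF3B subunit Sf3b6, gave 0 of 10 past the adjusted threshold. Their log2 fold changes were all below 0, with a median of -0.28, and 1 of the 10, Snrpa1, a U2-specific protein, had an unadjusted p under 0.05 (0.0496), beside 6.85% of all genes (2.98% lower). Snrpa1 stood, in EV mice 1 to 5, at 64.9, 64.2, 102, 104 and 69.9 CPM, and in sgZrsr2 mice 1, 2, 3 and 5 at 66.6, 68.9, 48.5 and 60.7 CPM (log2 fold change -0.41, SE 0.18, edgeR adjusted p 0.714). The groups overlapped, and EV mice 3 and 4 stood above all other libraries, as they did for 7 of the 9 subunits (not Sf3b1 and Sf3b3). Snrpb, an Sm ring protein, had the smallest difference of the list (-0.14, SE 0.15). Sf3b6, which touches the branch-point adenosine, was at 52.6, 52.3, 71.2, 70.0 and 51.4 CPM in EV and at 66.7, 64.6, 34.1 and 45.2 CPM with sgZrsr2 (log2 fold change -0.18, SE 0.20). As for Phf5a, sgZrsr2 mice 1 and 2 lay inside the EV range and mice 3 and 5 below it. The median of the 10 was -0.13 without sgZrsr2 mouse 3, -0.03 without the 3 libraries named above and 0.0028 with limma-voom and sample quality weights, with 5 of 10 then below 0.

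Of 17 factors that recognise the branch site and the 3' splice site or load U2, 14 had a log2 fold change below 0 (median -0.08) and 0 passed the adjusted threshold. The lowest was U2af1, the small subunit of the U2 auxiliary factor (-0.21, SE 0.20, edgeR adjusted p 0.795), whose expected counts were whole in 0 of 9 libraries. The highest was Gpatch8, a G-patch protein, at 94.6, 92.5, 82.4, 78.0 and 107 CPM in EV mice 1 to 5 and 125, 115, 123 and 112 CPM in sgZrsr2 mice 1, 2, 3 and 5. Its groups did not overlap (log2 fold change 0.39, SE 0.11, edgeR unadjusted p 0.0052 and adjusted p 0.714, exact permutation p 0.0159), and sgZrsr2 mouse 3 was among the higher libraries. Gpatch8 was the 1 of the 17 whose groups did not overlap, beside 3.06% of all genes (1.75% higher). It was also the 1 of the 17 with an edgeR unadjusted p under 0.05, beside 6.85% of all genes. Without EV mouse 3 the median of this list was 0.022, with 8 of 17 below 0, without sgZrsr2 mouse 3 it was -0.014, with 10 of 17 below 0, and with quality weights it was 0.07, with 7 of 17 below 0.

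The 8 factors of release and remodelling, around activation of the spliceosome and its catalytic steps, had a median of 0.02, with 4 below 0 and 4 above, and 0 passed. The lowest was Dhx38, a helicase of the catalytic steps (-0.08, SE 0.16). Among the 8 U11/U12 proteins, which share their particle with SF3B, 6 were below 0 (median -0.09), with Zrsr2 itself the lowest and Rnpc3, the protein that bridges U11 and U12, the highest (0.07, SE 0.16). The 8 transcripts known to be mis-spliced in cells with mutant SF3B1 or sensitive to SF3B inhibitors also gave 0 past the threshold and 6 below 0 (median -0.05). Tmem14c, a mitochondrial transporter needed for haem synthesis, was the lowest of these (-0.25, SE 0.12, edgeR adjusted p 0.714), and Ppox, an enzyme of haem synthesis, the highest (0.18, SE 0.21). Ppox was at 77.0 CPM in sgZrsr2 mouse 3, and without that library its log2 fold change was -0.04; its expected counts were whole in 0 of 9 libraries. With a library left out, the medians ran from -0.017 to 0.084 for release and remodelling and from -0.13 to -0.037 for U11/U12. For these 8 transcripts they ran from -0.085 to -0.0076. With quality weights the medians were 0.14, with 7 of 8 above 0, then -0.021 and -0.064 in the same order. Without EV mouse 5 and sgZrsr2 mice 3 and 5 they were 0.18, with 6 of 8 above 0, then -0.026 and -0.11. The counts add up all transcripts of a gene, so how these transcripts were spliced was not analysed here.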

How the data were processed

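Polyadenylated RNA of sorted LSK cells from 9 mice was sequenced. The authors deposited RSEM expected counts per Ensembl gene, not normalized; per the submitters' processing notes, cutadapt 1.11, RSEM 1.2.30 and build GRCm38 were used. The aligner, annotation release and strandedness are not given in the sources used here. Expected counts were rounded, filtered with filterByExpr (minimum count 10, minimum total 15; 14944 genes kept), scaled with TMM factors and compared with edgeR 4.0.16 (glmQLFit and glmQLFTest, R 4.3.3) with Benjamini-Hochberg adjustment over these genes. The standard error is the log2 fold change over the square root of F, and 95% intervals follow from it. Log2 CPM used a prior count of 2. Exact permutation tests were two-sided over 126 splits. Titles and genotypes gave the groups and titles the mouse numbers; p-values measure the spread between these samples. DESeq2 1.42.0, limma 3.58.1, other filters and scalings, a mouse-number block and left-out libraries were tried; library totals in the fit were added after the data were seen. The members and gene lists were chosen with earlier results of these data known. Named genes were the 9 subunits, Zrsr2, the highest and lowest gene of each further list (1 gene under this rule is not reported here) and the 3 genes nearest to Sf3b1; Sf3b6 and Cog4, Plekhj1 and the marker genes were named beyond this. Sf3b6 was matched by Ensembl identifier. Figures were drawn with matplotlib 3.10.9.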

Additional observations from a re-analysis of the deposited data

How the results depend on the processing

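No subunit passed an adjusted p of 0.05, or an unadjusted p of 0.05, in any of the 12 alternatives or the 9 fits without a library. The median log2 fold change of the 9 subunits ran from -0.22 to 0.023 over the alternatives; limma-voom with sample quality weights gave 0.023, with 2 of 9 below 0. Leaving out a library gave -0.23 (without sgZrsr2 mouse 1) to -0.06 (without sgZrsr2 mouse 3), with 8 to 9 of 9 below 0. The count of genes past the threshold was 16 in the DESeq2 Wald test, 1 with sgZrsr2 mice 1 and 2 averaged, and 0 in the other 10 alternatives and whichever library was left out; in edgeR 1024 genes had an unadjusted p under 0.05, in DESeq2 1274 and with quality weights 2551. Signs turned with quality weights for Sf3b2 (0.0092), Sf3b3 (0.0025), Sf3b4 (0.031), Phf5a (0.032), Sf3a1 (0.035), Sf3a3 (0.023), Sf3b6 (0.077), Snrpb (0.094), U2af1 (0.10), Dhx38 (0.058) and Ppox (-0.11). Without EV mouse 5 and sgZrsr2 mice 3 and 5 they turned for Phf5a (0.051), Sf3a1 (0.0049), Sf3b6 (0.10) and Ppox (-0.16). With sgZrsr2 mice 1 and 2 averaged Sf3b1 was at -0.0079. Over the fits without a library Sf3b1 ran from -0.027 to 0.089, Rnpc3 from -0.0092 to 0.17, Ppox from -0.039 to 0.30 and Dhx38 from -0.14 to 0.051. The cause was not tested. The labels do not say whether equal mouse numbers share an origin. Deviations from the group means correlated at -0.23, -0.09, -0.40 and 0.37 between the EV and sgZrsr2 libraries of numbers 1, 2, 3 and 5. Of the 4 sgZrsr2 libraries, 1 correlated best with its own number. So few values cannot decide whether the samples were paired. With the mouse number as a block Sf3b1 was at -0.022, the median of the subunits was -0.12 with 9 of 9 below 0, and 341 genes had an unadjusted p under 0.05 in place of 1024. With 5 against 4 mice the 95% intervals of the subunits reached as far as -35.3% (Phf5a) and 22.3% (Sf3b1).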
